A study of Mus musculus with 2 samples.

Results

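H3K79me2 was mapped over the 364 mouse genes named Zfp and a number in macrophages grown from bone marrow. The members were all protein-coding genes of GENCODE M21 on chromosomes 1 to 19 and X whose symbol is Zfp followed by digits, apart from Zfp36, which encodes an mRNA-binding protein of another kind. They made up 364 of 21755 protein-coding genes. A member was called clustered if another member lay within 100 kb, edge to edge, and single if none did: 208 members were clustered and 156 were single.

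The libraries came from unstimulated bone-marrow-derived macrophages of the strain C57BL/6J, with no transgene, deletion or treatment named. There were 2 biological replicates, which form 1 group and no contrast between conditions. Both carry the same donor identifier, so whether they come from separate animals is not stated. Sex was not collected for either, and age is given as unknown for one and not collected for the other. Each library started from 10 ng of DNA in a size range of 350 to 480 (the label gives no unit). The labels name 1 control experiment, the same for both. The files used were peak lists, which do not give sequencing depth. Of 8 macrophage markers, 7 were marked by the rule below, and Csf1r, which encodes the M-CSF receptor, was marked at another annotated start. Of 12 markers of T cells, B cells, neutrophils, dendritic cells, fibroblasts and erythroid cells, 0 had a covered base.

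Zinc finger proteins of this family carry rows of C2H2 fingers, each a short loop around a zinc ion that reads a few bases of DNA. Many also carry a KRAB domain, which recruits Trim28 and, through it, the histone methyltransferase Setdb1 to silence transposable elements and imprinted loci. KRAB zinc finger genes multiplied by local duplication and stand in tandem clusters of closely related copies. H3K79me2 is placed by the methyltransferase Dot1l over the 5′ part of genes that are being transcribed, so a covered 5′ end is a mark of the gene itself and says nothing of where its protein binds.

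The DNA just upstream of 8 members is printed first, because the CpG sites at the start are among the features in which clustered and single members differ, and the sequences show how they are spread. Each sequence is the 200 bases before the outermost annotated 5′ end, read 5′ to 3′ on the gene's strand from the RefSeq sequence of GRCm38.p6, with CpG sites in capitals. Zfp787 (chr7:6155998-6156197, minus strand, 16 CpG sites) and Zfp263 (chr16:3743893-3744092, plus strand, 14 CpG sites) are the clustered members with the highest deposited fold. Zfp710 (chr7:80024614-80024813, plus strand, 1 CpG sites) and Zfp91 (chr19:12796127-12796326, minus strand, 16 CpG sites) are the single ones. Zfp935 (chr13:62558512-62558711, minus strand, 6 CpG sites) and Zfp934 (chr13:62571200-62571399, minus strand, 2 CpG sites) are the longest unmarked clustered members with a KRAB domain. Zfp871 (chr17:32788288-32788487, minus strand, 7 CpG sites) and Zfp811 (chr17:32809932-32810131, minus strand, 4 CpG sites) are neighbours on chromosome 17 of which the former was marked and the latter was not, and this pair was chosen after its values were seen.
Zfp787: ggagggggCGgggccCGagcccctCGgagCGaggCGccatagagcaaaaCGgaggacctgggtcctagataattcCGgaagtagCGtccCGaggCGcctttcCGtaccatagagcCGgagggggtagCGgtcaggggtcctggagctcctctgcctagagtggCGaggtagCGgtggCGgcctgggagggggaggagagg
Zfp263: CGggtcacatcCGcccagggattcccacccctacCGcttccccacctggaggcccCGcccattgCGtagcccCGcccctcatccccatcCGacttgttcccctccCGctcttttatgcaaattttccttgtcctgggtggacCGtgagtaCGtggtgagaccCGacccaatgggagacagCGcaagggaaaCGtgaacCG
Zfp710: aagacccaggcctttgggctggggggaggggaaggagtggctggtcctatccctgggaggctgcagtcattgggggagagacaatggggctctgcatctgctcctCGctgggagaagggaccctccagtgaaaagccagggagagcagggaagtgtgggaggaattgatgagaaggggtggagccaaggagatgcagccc
Zfp91: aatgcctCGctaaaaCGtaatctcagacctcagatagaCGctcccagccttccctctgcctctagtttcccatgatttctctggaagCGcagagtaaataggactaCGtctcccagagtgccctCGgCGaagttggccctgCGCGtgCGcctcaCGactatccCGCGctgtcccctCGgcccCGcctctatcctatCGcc
Zfp935: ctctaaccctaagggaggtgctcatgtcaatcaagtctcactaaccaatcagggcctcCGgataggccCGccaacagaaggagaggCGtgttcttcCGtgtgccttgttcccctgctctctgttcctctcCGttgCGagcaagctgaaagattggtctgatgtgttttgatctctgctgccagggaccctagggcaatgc
Zfp934: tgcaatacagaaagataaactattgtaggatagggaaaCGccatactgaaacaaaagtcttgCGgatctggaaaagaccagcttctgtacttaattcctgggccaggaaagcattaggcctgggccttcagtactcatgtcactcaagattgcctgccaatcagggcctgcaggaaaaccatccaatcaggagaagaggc
Zfp871: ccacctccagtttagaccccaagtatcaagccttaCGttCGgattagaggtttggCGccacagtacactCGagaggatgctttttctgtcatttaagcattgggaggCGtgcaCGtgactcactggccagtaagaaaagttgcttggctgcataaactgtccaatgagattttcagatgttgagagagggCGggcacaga
Zfp811: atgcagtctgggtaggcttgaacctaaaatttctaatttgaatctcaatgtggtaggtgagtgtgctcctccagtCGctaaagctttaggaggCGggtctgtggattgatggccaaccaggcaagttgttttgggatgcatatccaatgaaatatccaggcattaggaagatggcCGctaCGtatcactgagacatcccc

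A gene counted as marked in a list if the list covered 200 bp or more of the window that runs 3 kb into the gene from its outermost annotated start, or to its other end in shorter genes. The main list was the replicated list, which draws on both replicates. Of the 364 members, 136 (37.4%) were marked, against 30.6% of all coding genes. In the list of replicate 1 alone 115 members (31.6%) were marked, against 27.5% of all coding genes. In that of replicate 2 alone 181 (49.7%) were marked, against 35.9%, and in the list of pooled reads 171 (47.0%), against 34.5%. The members thus stood above the share of all coding genes in each of the 4 lists, by the widest margin in replicate 2. Replicate 2 has the longer list, with 31577 peaks over 114 Mb, against 22979 peaks over 63.5 Mb in replicate 1. With 2 replicates of 1 group there is no contrast over samples to test, and all shares are descriptions. In such bulk libraries a mark in fewer cells and less of it in each cell cannot be told apart.

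Counted at any annotated start, 145 members were marked, against 33.2% of all coding genes, and 149 (40.9%) had a covered base anywhere in the gene, against 34.4%. At 1 bp or more of the first 3 kb 137 members were marked (background 30.9%), at 1000 bp or more 129 (28.9%), and in the first 5 kb 140 (31.3%). Among the 311 members that overlap no other coding gene 115 were marked, against 28.3% of such genes. With only the peaks at or above the list's median fold of 7.37, 83 members were marked, or 22.8%, against 22.5%: at that fold the members no longer stood above all coding genes. No member lay close to the threshold: just inside were Zfp710 with 553 bp and Zfp963 with 792 bp (it overlaps another coding gene), and just outside was Zfp961 with 75 bp.

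Clustered members were marked less often than single ones in the replicated list, 68 of 208 (32.7%) against 68 of 156 (43.6%). In replicate 1 the counts were 56 clustered (26.9%) and 59 single (37.8%). In replicate 2 they were 101 (48.6%) and 80 (51.3%), so the difference of 10.9 percentage points in the replicated list came down to 2.72 points. The clustered members were therefore close to all coding genes in the replicated list and well above them in replicate 2. Those nearest to the limit of 100 kb were Zfp932 and Zfp605, 99680 bp apart and clustered, and Zfp936 and Zfp715, 104087 bp apart and so not clustered with each other.

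**Figure D1:**
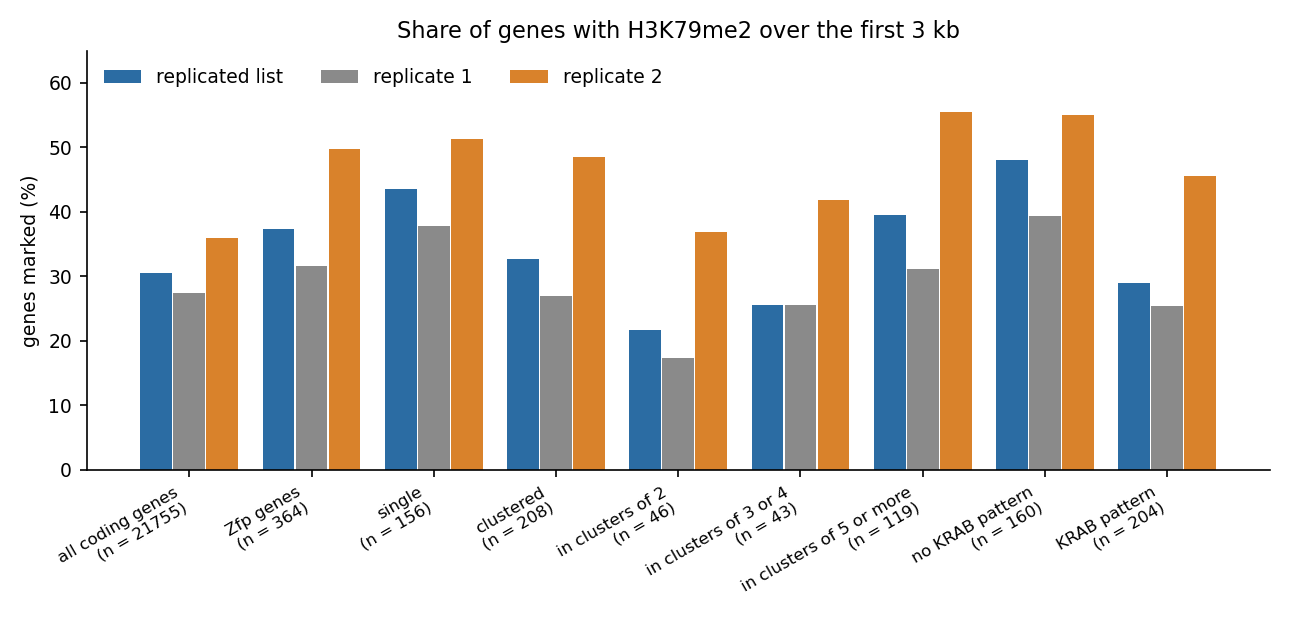
Share of genes (%, vertical axis) with at least 200 bp of the first 3 kb covered, for all coding genes and groups of Zfp genes (horizontal axis, with the number of genes); bars give the replicated list and the lists of replicate 1 and replicate 2. In each list single members stand above clustered ones (43.6% against 32.7% in the replicated list), and replicate 2 has the highest bar in each group.

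The share differed with the size of the cluster. In clusters of 2 members 10 of 46 (21.7%) were marked, in clusters of 3 or 4 it was 11 of 43 (25.6%), and in clusters of 5 or more 47 of 119 (39.5%). Replicate 2 gave the same order, with 37.0%, 41.9% and 55.5%, and replicate 1 gave 17.4%, 25.6% and 31.1%. In these lists the low share of clustered members thus sat in clusters of 2 to 4, while those of 5 or more were nearer to the single genes. Some windows recur in the genome. The unmarked pairs Zfp968 with Zfp965 and Zfp987 with Zfp600 had a median of 0% and 10.3% of 31-base stretches occurring once. Repeated copies over 100 kb from another member, such as Zfp969 and Zfp966 with 0%, counted as single. Over all members of the 3 cluster sizes the median was 93.1%, 92.8% and 92.3%. The part of this was not tested. The spread of each share over replicates is that between these 2 lists.

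A KRAB domain was read by pattern from the translated coding sequences, in 204 of 364 members. Of these 59 (28.9%) were marked, against 77 of 160 (48.1%) without the pattern. The pattern misses diverged boxes, such as that of Zfp57. Of clustered members 76.4% had it, and of single ones 28.8%. Among members with the pattern 44 of 159 clustered (27.7%) and 15 of 45 single members (33.3%) were marked. Among those without it the counts were 24 of 49 (49.0%) and 53 of 111 (47.7%), so there the clustered members stood 1.23 points above the single ones, a comparison added after the data were seen. The replicates differed in sign here: replicate 1 gave 36.7% clustered and 40.5% single, and replicate 2 gave 61.2% and 52.3%.

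The KRAB gap was narrower in replicate 2, where 93 of 204 members with the pattern (45.6%) and 88 of 160 without it (55.0%) were marked. In replicate 1 the counts were 52 (25.5%) and 63 (39.4%). Beyond the Zfp names, 89 other coding genes with the KRAB pattern had 19 marked (21.3%), 15 in replicate 1 and 33 in replicate 2. The 40 Zbtb genes, which pair fingers with a BTB domain in place of KRAB, had 25 marked (62.5%), 21 and 29 in the replicates. The 27 Zscan and Zkscan genes, whose proteins carry a SCAN dimerisation domain, had 10 (37.0%), 8 and 11 in the replicates. The groups with the KRAB pattern were thus the low end of these zinc finger genes in the replicated list. They also differed from the others in the CpG content of their starts, given below. The pattern was found in 2 of the 27 Zscan and Zkscan genes. Since it misses some boxes, this orders pattern matches and not all KRAB-bearing genes. Members had a median of 11 fingers, and Zfp142 had the most, 36. With 1 to 5 fingers 32 of 63 members were marked (50.8%), 40 of 106 with 6 to 10 (37.7%), 41 of 123 with 11 to 15 (33.3%) and 21 of 60 with 16 or more (35.0%). Over all coding genes with that many fingers, which include the members, 134 of 335 were marked in the lowest class, and the shares in the next 3 were 37.5%, 30.6% and 33.0%. In replicate 1 the members' shares were 34.9%, 34.0%, 28.5% and 33.3%, and in replicate 2 they were 57.1%, 49.1%, 48.8% and, for the highest class, 30 of 60.

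The start sequences differed too. CpG-rich starts were those with an observed to expected CpG ratio of 0.6 or more and 50% GC or more within 500 bp to either side. Of single members 59.6% had such a start, of clustered ones 39.9%, and of all coding genes 44.8%. Among members with a CpG-rich start 40 of 83 clustered (48.2%) and 50 of 93 single (53.8%) were marked, against 54.1% of all coding genes with one. That order held in replicate 1 (43.4% and 45.2%) and was the opposite in replicate 2 (67.5% clustered and 61.3% single) and in the pooled list (63.9% and 58.1%). Among those with a CpG-poor start it was 28 of 125 (22.4%) and 18 of 63 (28.6%), against 11.6%. So in the replicated list the excess of the members over all coding genes lay at CpG-poor starts: 46 of 188 such members were marked (24.5%). At CpG-rich starts members stood lower in that list (51.1% against 54.1%) and in replicate 1 (44.3% against 49.1%). They stood slightly higher there in replicate 2 (64.2% against 61.5%) and in the pooled list (60.8% against 59.6%). In replicate 2 the share at CpG-poor starts was 36.2% of members against 15.2% of all coding genes, and in replicate 1 it was 19.7% against 9.89%. A CpG-rich start was found in 33.8% of members with the KRAB pattern and 66.9% without it. It was found in 20.2% of other genes with the pattern and 80% of Zbtb genes. In the replicated list members with the pattern stood lower at CpG-rich starts (29 of 69 against 61 of 107) and CpG-poor ones (30 of 135 against 16 of 53). At CpG-poor starts they stood higher in replicate 2 (37.8% against 32.1%) and in the pooled list (34.8% against 32.1%).

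In the printed sequences Zfp787, Zfp263 and Zfp91 hold 14 to 16 CpG sites, whereas Zfp871, marked over 2929 bp of its window, holds 7. Zfp710 holds 1, and its covered stretch took up only 553 bp of the first 3 kb. RefSeq promoters, which run from 250 bases before a start to 50 after it in GRCm38.p6, were found for 299 members. They held a median of 11 CpG sites in clustered members, 17 in single ones and 14 in all coding genes. Short motifs were searched on both strands. The ETS letters CCGGAAG stood in 22.1% of members' promoters and 12.4% of all, and in 24.6% of those of all marked coding genes. Among members they stood in 25.9% of marked and 19.8% of unmarked promoters. The NF-Y letters CCAAT stood in 49.8% of members' promoters against 38.9% of all, the CREB letters TGACGTCA in 3.01% against 2.43%, and the NRF1 letters TGCGCATGC in 4.01% against 2.13%. A match describes letters and not a site.

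The windows of clustered members recur in the genome more often than those of single ones. The share of 31-base stretches of the window that occur once in GRCm38 had a median of 97.8% in single members, 92.6% in clustered ones and 97.2% in all coding genes. Of the 48 members with under 50% of such stretches, 4 were marked: Zfp932, Zfp971, Zfp984 and Zfp994, named after their values were seen. That is 8.33% of members, against 2.88% of the 1526 coding genes with such windows. By contrast 107 of 247 members with 90% or more were marked (43.3%), against 34.4% of all coding genes with such windows. In the clusters the median was 95.3% for marked and 91.4% for unmarked members. With windows at 90% or more alone, 47 of 123 clustered (38.2%) and 60 of 124 single members (48.4%) were marked, a difference of 10.2 points that is much the same as over all members. How reads with several matches were treated is not given in these sources, and the part of this in the unmarked state of near-identical copies was not tested.

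**Figure D2:**
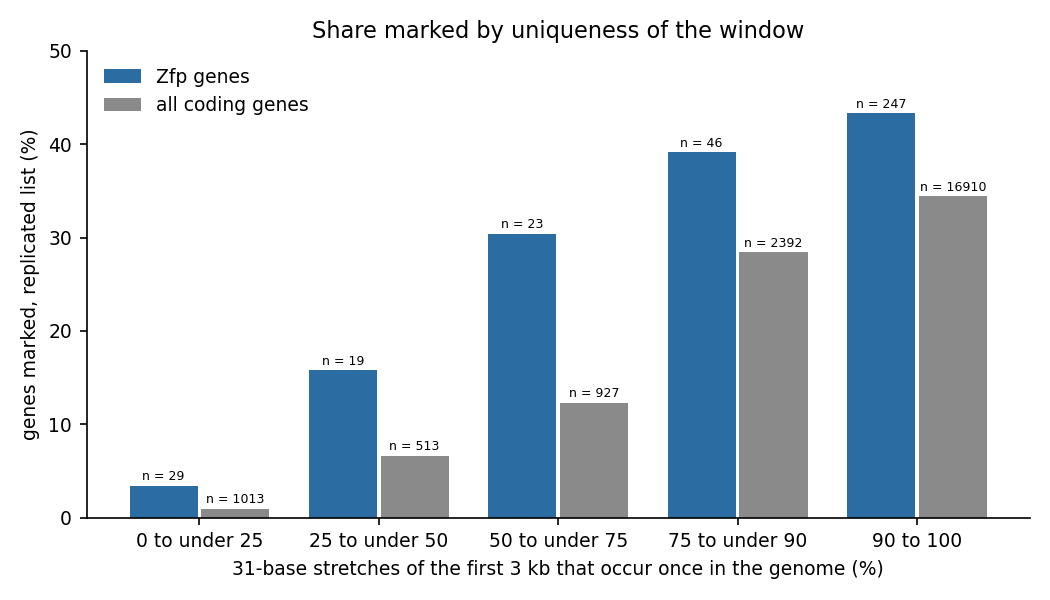
Share of genes marked in the replicated list (%, vertical axis) by the share of 31-base stretches of the first 3 kb that occur once in the genome (horizontal axis, %), for Zfp genes and all coding genes, with the number of genes above each bar. The share of Zfp genes marked was 3.45% in the lowest class and 43.3% in the highest; the class from 25 to under 50 holds 19 Zfp genes.

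Chromosomes 2 and 4 hold most of the repeated copies. On chromosome 2, 13 of 25 members had windows under 50% unique, and 7 were marked in the replicated list and in each replicate. That is 28.0%, against 30.1% of coding genes there in the replicated list. On chromosome 4 it was 17 of 30, with 5 marked (16.7%, against 30.7% of coding genes there), 5 in replicate 1 and 6 in replicate 2. Chromosome 7 holds 88 members, 71 of them clustered. There 27 (30.7%) were marked, 24 in replicate 1 and 42 in replicate 2, against 22.5% of the chromosome's coding genes in the replicated list. On chromosome 17, 20 of 41 members were marked (48.8%, against 32.8%), 17 and 23 in the replicates. On chromosome 13 it was 8 of 31 (25.8%, against 29.4%), 6 and 18 in the replicates.

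The clustered members fell into 51 clusters, 23 of them pairs and 28 of 3 or more genes. In 21 clusters no member was marked, in 3 all were, and in 27 marked and unmarked members stood together. The clusters marked throughout were Zfp397, Zfp35 and Zfp24 on chromosome 18, Zfp81 with Zfp101 on chromosome 17 and Zfp668 with Zfp646 on chromosome 7, named after their values were seen. Of 157 neighbouring pairs within clusters, both were marked in 23, 1 of the pair in 60 and neither in 74. The DNA between neighbours had a median of 0% under the replicated list in all 3 kinds of pair. In the replicated list marked and unmarked genes thus often stood side by side, and the typical gap between neighbours was bare. A median does not show that every gap was bare, and gaps between other coding genes were not measured. The span from Zfp668 to Zfp646, genes included, was 70.3% covered.

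**Figure D3:**
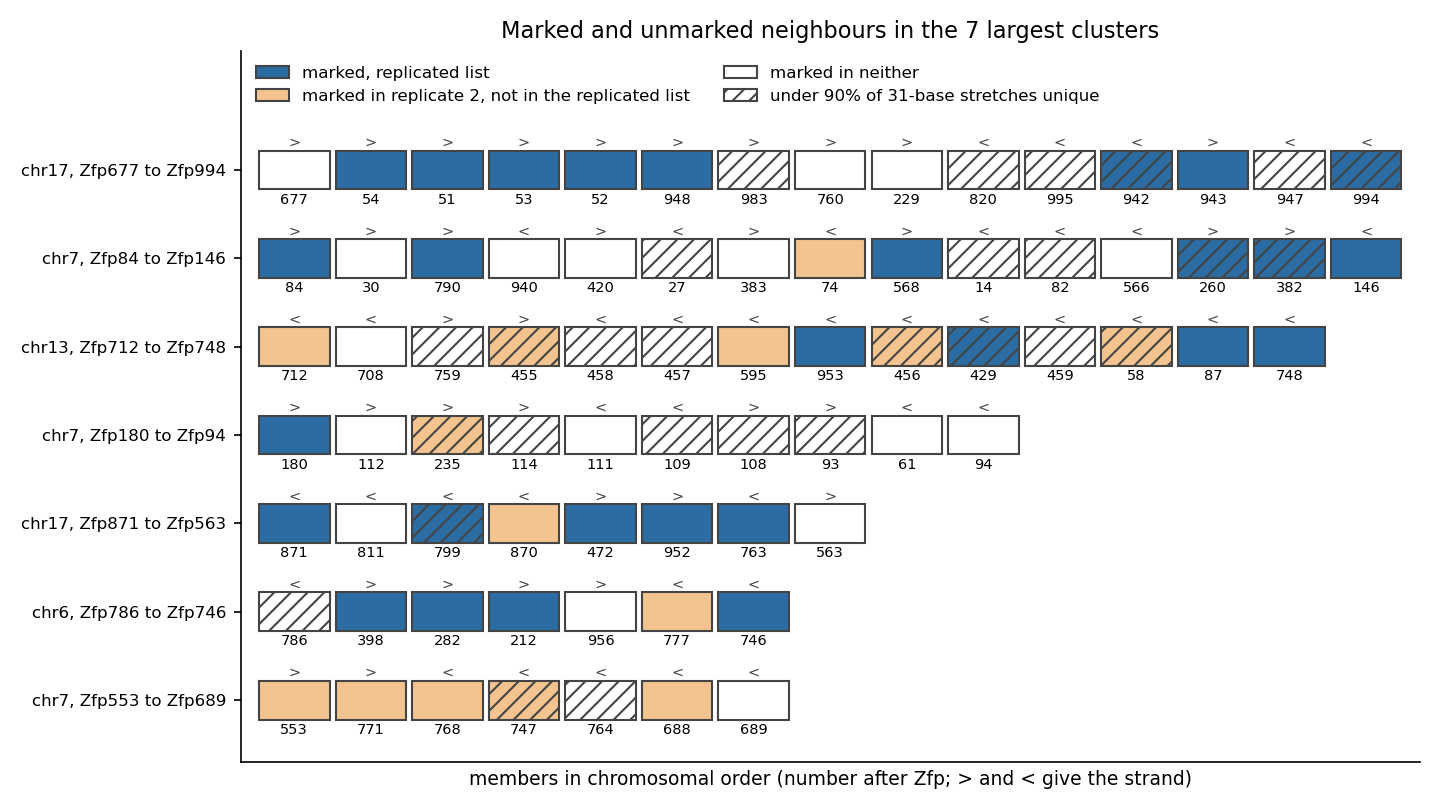
Members of the 7 largest clusters in chromosomal order (boxes, left to right; the number after Zfp stands below each box and the strand above), coloured by whether they were marked in the replicated list, in replicate 2 but not in the replicated list, or in neither; hatching marks windows with under 90% unique 31-base stretches. Marked and unmarked genes stand side by side in each of the first 6 rows, and the last row holds 5 genes marked in replicate 2 but not in the replicated list.

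The cluster from Zfp677 to Zfp994 spans 842 kb of chromosome 17 (chr17:21383748-22225616) and holds 15 members, all with the KRAB pattern. In it 8 were marked in the replicated list, 6 in replicate 1 and 8 in replicate 2, and 4.77% of its span was covered. Zfp52 had 8721 covered bases in the gene in the replicated list, 4017 in replicate 1 and 8543 in replicate 2. Its neighbour Zfp53 had 8036, 2109 and 11318, and Zfp943 had 7560, 1253 and 12164. In each of these 3 genes the list of replicate 2 covered more bases than that of replicate 1. The longest unmarked members, Zfp229 and Zfp995, had 0 bases in each of the lists. Zfp943 stands head to head with Zfp942, their starts within 1 kb, and both were marked.

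The cluster from Zfp84 to Zfp146 on chromosome 7 (chr7:29768552-30169750) also holds 15 members, 11 with the KRAB pattern. Here 6 were marked in the replicated list and in replicate 1, and 7 in replicate 2. Zfp146, at its distal end and without the pattern, was covered over 99.6% of its 8482 bp: 8450 bases in the replicated list, 6731 in replicate 1 and 8462 in replicate 2. Zfp790 had 7183, 3601 and 7352 covered bases in the gene. Zfp382 had 6630, 5228 and 6854. Between them stood genes unmarked in the replicated list. Zfp940, 2614 bp from Zfp790, had 0 bases in the 3 lists. Zfp74 had 1167 bases in replicate 2 alone, where it was marked.

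The cluster on chromosome 13 from Zfp712 to Zfp748 (chr13:67038596-67553830) holds 14 members, all with the KRAB pattern and none with a CpG-rich start. Of the 6 largest clusters it had the widest gap between the replicates, with 4 members marked in the replicated list and in replicate 1, and 9 in replicate 2. Zfp953, which overlaps 2 other coding genes, had 8365 covered bases in the replicated list, 1747 in replicate 1 and 10226 in replicate 2. Zfp748, with 23 fingers, had 6859, 5970 and 6831. Zfp87, which overlaps another coding gene, had 5745, 4632 and 7272. Zfp748 and Zfp87 are the neighbours at the distal end of the row and were the most alike in both replicates. Zfp429 had 1597, 1005 and 2071 bases. Zfp708, which overlaps 2 coding genes, had 0 bases in the 3 lists. Zfp458, with 14.2% of its window unique, had none in the window but 1630 further in, 0 in replicate 1 and 3375 in replicate 2.

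In the 10 members from Zfp180 to Zfp94 on chromosome 7 (chr7:24081924-24316666) 1 was marked, in the replicated list and in replicate 1, and 2 in replicate 2. The marked one was Zfp180, the first gene of the row and the only one of them without the KRAB pattern, with 15100 covered bases in the replicated list, 9010 in replicate 1 and 15296 in replicate 2. Its neighbour Zfp112, 4600 bp away, had 0 bases in the 3 lists. Zfp111 had 1809 in replicate 2, and 0 in replicate 1 and in the replicated list. Zfp235, named after its values were seen, had 930 in replicate 2 and was marked there.

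The 8 members from Zfp871 to Zfp563 on chromosome 17 (chr17:32765496-33110705) had the most covered span of the 6 largest clusters, 12.7%, with 5 marked, 4 in replicate 1 and 6 in replicate 2. Zfp871, whose upstream bases stand above, had 20784 covered bases of 22792 in the replicated list, 16651 in replicate 1 and 20857 in replicate 2. Zfp811, the next gene on the same strand, had 0 in each, and 96.6% of its window was unique. Zfp472 had 10204, 8884 and 11323 covered bases, and Zfp952 had 6691, 683 and 6588. Zfp763 had 2427, 0 and 3728, and Zfp799 had 1520, 381 and 6484. Zfp871 and Zfp472 were much alike in the 2 replicates, while Zfp952, Zfp763 and Zfp799 were short or missing in replicate 1. Zfp563 had 979 bases, all beyond the window, with 0 in replicate 1 and 4627 in replicate 2.

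Of the 7 members from Zfp786 to Zfp746 on chromosome 6 (chr6:47819266-48086593), 4 were marked, 2 in replicate 1 and 5 in replicate 2. Zfp212 had 5874 covered bases in the replicated list, 5154 in replicate 1 and 6056 in replicate 2. Zfp398 had 3346, 1656 and 3691. Zfp746 (1410, 0 and 1517) and Zfp282 (1263, 0 and 5812) had none in replicate 1. A further row of 7 on chromosome 7, from Zfp553 to Zfp689 (chr7:127233061-127449158), was named after its values were seen. It had 0 members marked in the replicated list and in replicate 1 but 5 in replicate 2 and 5 in the pooled list.

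The replicates ordered the members in 1 direction. All 115 members marked in replicate 1 were also marked in replicate 2, and 66 more were marked in replicate 2 alone, each with 0 covered bases of the window in replicate 1. These 66 were 36.5% of the 181 members marked in replicate 2. Among clustered members they were 45 of 101 (44.6%), among single members 21 of 80 (26.3%), and among all coding genes 1799 of 7808 (23.0%). The lists of the replicates thus parted more often at clustered Zfp genes than over all coding genes. This was not particular to them. Among members with the KRAB pattern it was 41 of 93 (44.1%), and without it 25 of 88 (28.4%). Among other coding genes with the pattern it was 18 of 33 (54.5%). In replicate 2 these 66 had a median fold over control of 4.68 and a median of 1449.5 covered bases of the window, whereas the 115 had 13.3 and 2582. Over all coding genes the corresponding folds were 4.93 and 17.3. Depth is not known for either library, and its part in this was not tested. Of the 66, 21 were marked in the replicated list and 56 in the list of pooled reads.

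**Figure D4:**
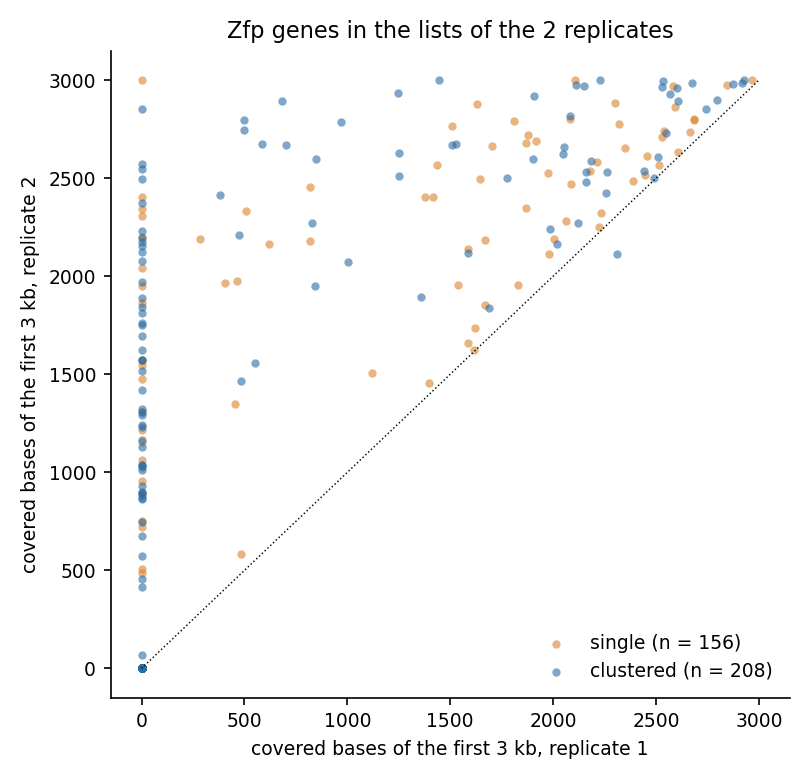
Covered bases of the first 3 kb in the list of replicate 1 (horizontal axis) and replicate 2 (vertical axis) for each Zfp gene, single or clustered, with equality as a dotted line. Of 364 members 181 lie above the line, 1 lies below it and 182 lie at 0 in both, and a column of 66 marked genes stands at 0 in replicate 1.

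Among members marked in replicate 2 with no covered base of the whole gene in replicate 1, the 5 with most covered bases in replicate 2 were 4 single members and 1 clustered one. Zfp704 (chr3:9427020-9610085) had 97310 covered bases in the gene in replicate 2, 0 in replicate 1 and 28234 in the replicated list. Zfp609, a cofactor of gene activation, had 13944, 0 and 3907. Zfp961, a clustered KRAB member that overlaps another coding gene, had 13290, 0 and 6284. Zfp1 had 11124, 0 and 0, and Zfp839 had 8864, 0 and 2882. No member was marked in replicate 1 and bare in replicate 2.

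Coverage began after the start of the gene, as it did over all coding genes. Over single members coverage was 2.42% in the 500 bp before the start and 10.3% in the 500 bp after it, and it peaked at 41.4% of bases between 1500 and 2000 bp. Over clustered members it peaked earlier, at 30.3% between 1000 and 1500 bp, and over all coding genes at 29.2% between 1500 and 2000 bp. Between 9500 and 10000 bp, where 130 single and 168 clustered members still reach, it was 18.1% over single and 7.80% over clustered members, against 18.1% over all coding genes. When each marked gene was cut into 3 equal stretches, members had a mean of 65.5%, 31.6% and 10.9% covered from 5′ to 3′, against 66.8%, 34.2% and 11.7% in all marked coding genes.

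**Figure D5:**
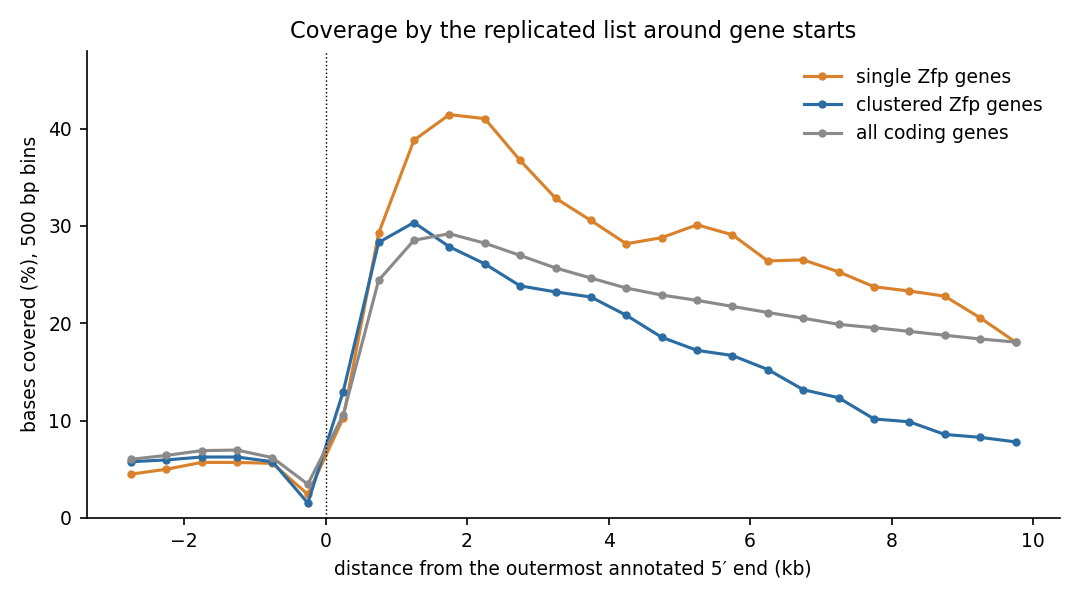
Mean share of bases under the replicated list (%, vertical axis) in 500 bp bins by distance from the outermost annotated 5′ end (kb, horizontal axis; bins downstream count only genes that reach them), for single and clustered Zfp genes and all coding genes. Single members peak at 41.4% and clustered ones at 30.3%, and the clustered line falls below that of all coding genes further into the gene.

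Marked members had a median of 5507.5 covered bases and 31.2% of the gene, 6070.5 bases and 32.9% in single and 4800 bases and 30.7% in clustered members, against 6118.5 bases and 33.9% in all marked coding genes. Their median fold in the replicated list was 8.71, 10.1 in single and 7.71 in clustered members, against 11.9 in all marked coding genes. In this list the marked members were thus covered over a like share of the gene at a lower fold. Clustered members were also shorter, with a median length of 15632.5 bp against 21227 bp in single ones. The last exon, which in these genes usually codes for the whole row of fingers, held a covered base in 18 of 136 marked members (13.2%), against 13.6% of all marked coding genes.

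The 5 marked members with most covered bases in the last exon were Zfp871, Zfp281, Zfp655, Zfp715 and Zfp703. In Zfp871 8576 of 10513 bases of it were covered in the replicated list, 6259 in replicate 1 and 8582 in replicate 2. Zfp281, a promoter-binding factor known from embryonic stem cells, had 4622 of 4782, 2917 and 4681. Both were covered there in each replicate. Zfp655 had 3544 of 3728 bases covered, 0 in replicate 1 and 3728 in replicate 2, and Zfp715 had 3209 of 3654, 0 and 2966. In the latter pair the covered stretch ended before the last exon in replicate 1. Zfp703 is 4137 bp long and had 2894 of 2894 last-exon bases covered, 2041 in replicate 1 and 2894 in replicate 2.

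By role, the silencing partners of the KRAB domain come first, since they act with many of the members. Of 30 such genes, none of them a member, 23 were marked in the replicated list and in each replicate, against 30.6% of all coding genes in the replicated list. Trim28, the corepressor that KRAB binds, was unmarked at its outermost start, where 75.7% of stretches are unique and another coding gene overlaps, but was marked at another start, with 4873 covered bases in the gene, 4044 in replicate 1 and 6634 in replicate 2. Setdb1, the H3K9 methyltransferase it recruits, had 2520, 1001 and 2797 covered bases. Dnmt3a, a DNA methyltransferase, had 77907, 40016 and 88757, the most of this list. Its relative Dnmt3b had 0 in the 3 lists. This list and those below were chosen with earlier results of these data known.

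Of 15 members known for imprinted loci or retroelements, 6 were marked in the replicated list and in replicate 1, and 8 in replicate 2. The 6 of 15 are near the 30.6% of all coding genes in the replicated list. Zfp445, a KRAB protein that maintains methylation at imprinted loci, had 6579 covered bases in the replicated list, 4236 in replicate 1 and 6753 in replicate 2. Zfp57, known for the same task in embryos, had 0 in each. Zfp809, which silences murine leukaemia virus by way of its primer binding site, had 8937, 5581 and 9179. Zfp568, which represses a placental transcript of Igf2, had 2458, 848 and 6754. So of the pair of imprint keepers one was covered and the other bare. Zfp68 had 5097, 3116 and 6622 covered bases, and Zfp932, which binds retroelements and has 46.1% of its window unique, had 2675, 943 and 4930.

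Of 22 members chosen as general and promoter-binding factors, 19 were marked in the replicated list, 15 in replicate 1 and 19 in replicate 2. The shares of all coding genes were 30.6%, 27.5% and 35.9%. Of these 22 members, 21 were single. Zfp516, a coactivator known from brown fat (chr18:82910663-83005314), had the most covered bases of any member: 80193 of 94652 in the replicated list, 66314 in replicate 1 and 86845 in replicate 2. Its fold in the window was low, 5.45. Zfp710 (chr7:80024814-80094173) had 60259, 57687 and 62236 covered bases and the highest fold of any member, 30.9. In both the covered share of the gene, 84.7% and 86.9%, was far above the median of marked members.

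Zfp148, which binds GC-rich promoters (chr16:33380836-33504363), had 55036 covered bases, 38989 in replicate 1 and 69854 in replicate 2, with a fold of 26.6. Zfp292 had 44108, 42144 and 43753, with a fold of 23.8. Zfp652, a repressor that overlaps 3 other coding genes, had 35295, 31984 and 37094. Zfp644, a partner of the H3K9 methyltransferases G9a and GLP, had 34791, 15093 and 50542, the widest gap between replicates of these. Zfp592, a partner of the chromatin reader Zmynd8, had 27134, 21421 and 30887. Zfp91, a ubiquitin ligase of the non-canonical NF-kappaB pathway (chr19:12763660-12796126), overlaps another coding gene and had 24392, 17042 and 25049, with a fold of 28.2. These genes were all covered in both replicates.

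All 9 members chosen as acting on RNA, ribosomes or the spindle were marked in the replicated list. In replicate 1 it was 8 and in replicate 2 it was 9, against the same shares of all coding genes. The list was chosen with earlier results of these data known and may leave out other such members. Zfp207, a kinetochore and spindle protein, had 19808 of 22455 bases covered, 16061 in replicate 1 and 20058 in replicate 2. Zfp622, a factor of large ribosomal subunit assembly, had 11265, 9748 and 11373, with a fold of 26.9. Zfp598, the ligase that senses collided ribosomes, had 6558, 2036 and 6828. These 3 are not known as transcription factors, and none of the 9 was clustered. Zfp326, which couples elongation to splicing, had 19612, 8912 and 25995 covered bases. Zfp106, an RNA-binding protein, had 19434, 11772 and 24721. Zfp638, an RNA- and DNA-binding protein of the nuclear matrix, was the one not marked in replicate 1: it had 0 bases of the window there, though 19910 further in, against 25559 in the replicated list and 25260 in replicate 2.

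Of 16 members known from development or other lineages, 1 was marked in each of the 3 lists, against 30.6% of all coding genes in the replicated list. It was Zfp703, known from mammary and neural cells, with 3998 covered bases of 4137, 2766 in replicate 1 and 4017 in replicate 2. Zfp42, a marker of pluripotent cells also called Rex1, had 0 in the 3 lists. So had Zfp423 and Zfp521, large sister genes that act in fat, brain and B-cell precursors, Zfp462, the neural genes Zfp536 and Zfp503, and Zfp488 of oligodendrocytes. Zfp608, of the same list, was unmarked at its outermost start but had 20030 covered bases further in, 8707 in replicate 1 and 43337 in replicate 2. Members were assigned to this list or to the general factors with earlier results of these data known. Zfp516 and Zfp281 stand among the general factors, although known from brown fat and embryonic stem cells. The gap between these lists is therefore no result about roles.

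The highest folds among clustered members were those of Zfp787 and Zfp263. Zfp787 (chr7:6131491-6155997) had a fold of 29.1 and 13702 covered bases, 12040 in replicate 1 and 21139 in replicate 2. Zfp263 (chr16:3744093-3750790), a KRAB and SCAN protein whose box the pattern missed, had a fold of 27.3 and 6645 of 6698 bases covered, 5269 in replicate 1 and 6594 in replicate 2. Zfp120 and Zfp871 followed, with folds of 25.04 and 24.62, and were the highest members with the KRAB pattern. Zfp120, with 68.0% of its window unique, had 17454 covered bases, 16270 and 17505 in the replicates. Among single members Zfp62, with 25 fingers, had a fold of 28.0 and 10503 covered bases, 9750 and 10672 in the replicates. These genes were covered over a like number of bases in both replicates, apart from Zfp787.

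In 30 members another coding gene starts within 1 kb on the opposite strand, and 17 of them were marked (56.7%), against 119 of 334 without such a partner (35.6%). The counts were 15 of 30 and 100 of 334 (29.9%) in replicate 1, and 22 (73.3%) and 159 (47.6%) in replicate 2. Over all coding genes the shares in the replicated list were 54.9% of 2382 with a partner and 27.6% of 19373 without, a difference in the same direction. Of the 17 members whose partner was marked, 11 were marked (64.7%), and of the 13 whose partner was not, 6 (46.2%). Zfp668 and Zfp646 form such a pair of members, both marked, as do Zfp942 and Zfp943. Zfp758 and Zfp944 form another, of which the former was marked and the latter was not. A pair in which both genes are members entered these counts from each side.

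Of the 228 unmarked members 215 had no base of the gene under the replicated list, and 170 of the 364 members had none in any of the 4 lists. Only 9 of the unmarked members were marked at another start. Zfp217, a partner of the Kdm1a corepressor complex, had 0 bases in its window but 22893 of 39461 further in, 21355 in replicate 1 and 22990 in replicate 2. Zfp738, with 29.8% of its window unique, had 8667, 1893 and 9372 further in, and Zfp866, which overlaps 2 coding genes, had 6040, 5337 and 7160. Zfp608 and Zfp961, described above, were the other unmarked members with most bases further in, and all 5 were marked at another annotated start.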

How the data were processed

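H3K79me2 ChIP-seq of unstimulated C57BL/6J bone-marrow-derived macrophages was used as 4 peak lists on mm10, per the deposited text notes: replicate 1, replicate 2, pooled reads, and a replicated list drawing on both. Aligner, peak caller, calling thresholds and depth were not given in the sources used here. The authors computed each peak's fold over control, a ratio that was used within single lists, to rank members or to drop weaker peaks. Also deposited were −log10 p- and q-values, which no result here uses.

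Overlapping peaks of a list were joined and compared with GENCODE M21 and the RefSeq sequence of GRCm38.p6 with Python 3.11.15, pandas 2.3.3, numpy 2.4.6 and pysam 0.24.0. KRAB patterns and finger numbers had been planned from RefSeq proteins and were read from translated GENCODE coding sequences instead, any coding transcript for KRAB and the longest for fingers. Window uniqueness counted 31-base stretches occurring once in the chromosomes, both strands. Covered bases, clusters and unique stretches were tested on simulated data.

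The members, gene lists and alternatives were chosen with earlier results of these data known. Named members are the 10 with most covered bases, the 10 with the highest fold, the marked (up to 5, else the 3 most covered) and the 2 longest unmarked of the 6 largest clusters, the 5 unmarked with most bases further in, the 5 marked in 1 replicate only, the 5 with the most covered last exon, up to 8 of each role list, and those beside each threshold. Zfp lists other than these, the 2 added alternatives and the neighbour pair were chosen after seeing the data. No test was run, since 2 replicates form 1 group.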

Additional observations from a re-analysis of the deposited data

How the results depend on the processing

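Of 74 alternative values computed for 8 results, 64 stayed within 1 SD between the replicates (or gave the same count), 9 moved further and 1 changed sign. That SD rests on 2 values and was wide: 12.8 points for all members, 15.3 for clustered ones and 5.78 for the clustered minus single difference. Differences of -5.57 points at CpG-rich starts and -5.66 points with the KRAB pattern thus counted as within it. The count is therefore a weak measure of stability. With 1 replicate left out, which here means the list of the other replicate alone, the share of clustered members marked ranged from 26.9% to 48.6%, that of members with the KRAB pattern from 25.5% to 45.6%, the clustered minus single difference from -10.9 to -2.72 points, and the median share of the gene covered in marked members from 19.7% to 30.3%. With the list of pooled reads the difference was -1.92 points. With the weaker peaks left out (those under the median fold) the share marked was 22.8% of members, 29.5% of single members and 32.5% of members without the KRAB pattern. Among members of middle length, between 11748 and 28790 bp, the difference was -1.12 points. Among members without the KRAB pattern, an alternative chosen after seeing the data, it reversed to 1.23 points. The difference was below 0 in 15 of 16 settings, and lay between -15.2 and 1.23 points. The settings overlap, and most rerun the replicated list. Splits by KRAB pattern and start type together were not among them. In that list clustered members stood higher with the pattern and a CpG-rich start (23 of 51 against 6 of 18 single). They also did without the pattern at CpG-poor starts (7 of 17 against 9 of 36). They stood lower with it at CpG-poor starts (21 of 108 against 9 of 27). Without it at CpG-rich starts they did too (17 of 32 against 44 of 75). The cause of these shifts was not tested. The count of 115 members shared by the replicates was the same under both rules of overlap. Depth per library is unknown, so no floor can be set for an unmarked gene. No paired analysis was possible because the replicates form 1 group.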

Other observations

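In 4 equal classes of member length, from the shortest to the longest, 17 of 37, 12 of 28, 12 of 35 and 27 of 56 single members were marked in the replicated list, and 14 of 54, 24 of 63, 20 of 56 and 10 of 35 clustered members. In this list clustered members stood below single ones among the shortest (25.9% against 45.9%, with 20.5% of all coding genes of that length) and the longest genes (28.6% against 48.2%, with 37.1%). They stood closer in the classes between (38.1% against 42.9%, and 35.7% against 34.3%). Replicate 1 gave 20.4% against 40.5% among the shortest and 25.7% against 42.9% among the longest. In replicate 2 the gap was small, with 46.3% against 51.4% among the shortest and 17 of 35 against 28 of 56 among the longest.

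Of 12 members in whose protein no C2H2 finger was found by pattern, 2 were marked in the replicated list and in replicate 1, and 3 in replicate 2. The shares of all coding genes with no finger found were 30.4%, 27.3% and 35.5%. On the X chromosome 1 of 7 members was marked in the replicated list, 0 in replicate 1 and 2 in replicate 2, against 15.8% of its coding genes in the replicated list.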
